A study of Mus musculus with 9 samples.

Results

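The T cell receptor gene segments were read by 8 probes, of 45281 on the array. A probe was taken where its platform annotation symbol names an alpha, beta, gamma or delta receptor segment and where it was detected, at a detection p under 0.05, on at least 1 of the 9 arrays. The annotation gives such a symbol to 9 probes, and the 1 left out, for Trgv6, was detected on no array (detection p 0.153 to 0.865). All 8 read variable segments. They are Trgv4, Trgv5 and Trgv7 of the gamma locus, Trbv13-1, 2 probes annotated to Trbv13-2 (called probe A and probe B here) and 1 annotated to both Trbv13-2 and Trbv1 of the beta locus, and 1 annotated to 3 members of the Trav14 family of the alpha locus. The RefSeq gene table lists 270 T cell receptor segments, of which 10 are named by the annotations of the 9 probes, Trgv6 included, none of them a constant, joining or diversity segment.

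The samples were Illumina MouseWG-6 v2.0 arrays of C57BL/6 mouse RNA, 3 of wild-type thymus, 3 labelled as thymus of mice with an Lmo2 transgene, and 3 of cell lines from T cell leukaemias of such mice. The transgene, CD2-Lmo2, puts the transcriptional cofactor Lmo2 under a CD2 promoter, which is active in T cells. The lines carry the numbers 3, 175 and 261 and are called line 3, line 175 and line 261. The labels give no age or sex, do not say that the thymus samples are separate animals, that thymocytes were sorted or that a line is a single clone, and no treatment is named. The p-values measure the spread between these samples, which for thymus may be partly technical.

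In a developing T cell the recombinase RAG1-RAG2 cuts the receptor loci and joins a variable segment to a joining segment, with a diversity segment between them at the beta and delta loci. The joined exon is transcribed with a constant region, so a T cell and its descendants carry the variable segments they rearranged, and a leukaemia grown from a single cell carries those of that cell. A thymus holds many clones and so a mixture of segments. In mice gamma-delta T cells develop in waves, with Trgv5 used by the early wave that settles in the skin, Trgv7 by cells of the gut epithelium and Trgv4 by many gamma-delta cells of the adult thymus. Variable segments can also be transcribed before they are joined. An array signal does not tell a joined segment from an unjoined one, or a productive join from an unproductive one.

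In the RefSeq order Trgv7, Trgv4, Trgv6 and Trgv5 stand next to each other, and Trgv5 is followed by the joining segment Trgj1. In the beta locus Trbv13-1 lies between Trbv12-1 and Trbv12-2, and Trbv13-2 between Trbv12-2 and Trbv12-3. Segments of a family resemble each other, so a probe may bind the message of a relative, and no source used here says which part of the message a probe reads. Levels are therefore compared only between arrays within a probe. They are log2 intensities after background correction and quantile normalization, on which the lowest signal of a detected probe lay between 4.92 and 5.33 over the arrays.

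The arrays had median raw intensities of 118.5 to 161.2 and detected 35.0% to 43.0% of probes, with the lines lowest on both. Pairs of arrays of a group correlated at r = 0.971 to 0.990 in wild type, 0.923 to 0.964 for the labelled transgenic arrays and 0.920 to 0.947 for the lines. Labelled transgenic array 2 stood apart, at least 2 log2 units below both other arrays of its group, which detected the probe, for 2.58% of the 19490 probes tested, against 0.0667% and 0.195% for arrays 1 and 3. The Lmo2 probe read 8.06 ± 0.14 (SD, n = 3) in wild type, 6.20 ± 0.76 (detected on all 3) on the labelled transgenic arrays and 4.53 ± 0.29, undetected, in the lines. It thus went against the transgenic label, although the difference in thymus of -1.86 ± 0.37 (SE) was not called (limma adjusted p = 0.0531). The lines were called lower, with differences of -3.53 ± 0.22 from wild type (limma adjusted p = 7.10e-05) and -1.67 ± 0.41 from labelled transgenic thymus (adjusted p = 0.0368). It was not tested whether transcripts of the transgene bind this probe. T cell genes marked all groups: Cd3d, Cd3e, Cd3g, Cd2, Thy1 and Cd8b1 were detected on 9 of 9 arrays. Cd8a and Cd5 were detected on 0 arrays and Cd4 on 5.

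**Figure D1:**
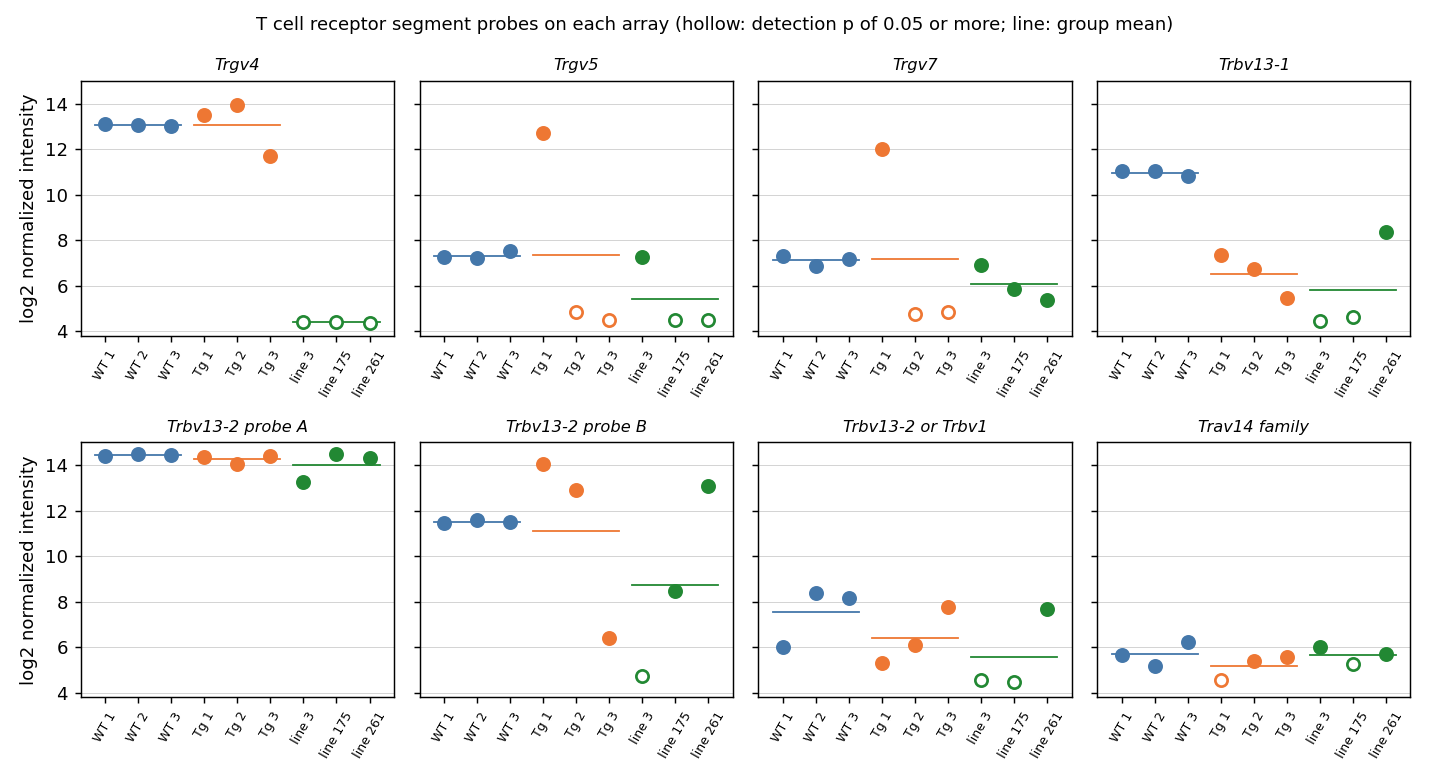
Log2 normalized intensity (vertical axes) of the 8 segment probes on each of the 9 arrays (horizontal axes), with wild-type thymus in blue, labelled transgenic thymus in orange and cell lines in green. Hollow points were not detected and lines are group means. Wild-type arrays lie close together for Trgv4 (13.03 to 13.11), while Trgv5 stands at 12.74 on labelled transgenic array 1 alone and Trbv13-2 probe B spreads from 4.72 to 13.09 over the lines.

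Wild-type thymus gave nearly the same signal on its 3 arrays for 6 of the 8 probes, whose SDs lay under the median SD of all probes, 0.23 log2 units. All 8 probes were detected on each wild-type array, 6 to 7 on the labelled transgenic arrays, and 4, 3 and 6 in lines 3, 175 and 261. Of all probes, 39.4% to 43.0% were detected on the wild-type arrays, 38.2% to 40.8% on the labelled transgenic arrays and 35.0% to 35.2% in the lines. The mean number was 8 in wild type with no spread, 6.33 ± 0.58 (SD, n = 3) on the labelled transgenic arrays, a difference of -1.67, and 4.33 ± 1.53 in the lines, a difference of -3.67. Both gave p = 0.1 in a two-sided exact permutation test, the smallest that 3 against 3 arrays can give, and an adjusted p of 0.4 over the 12 tests made for the loci and groups. The probes were also chosen by the same detection p, so this test cannot decide whether the numbers differ. By locus, all 4 beta probes were detected on every thymus array, while 3 gamma probes were detected on every wild-type array and on labelled transgenic array 1, and 1 on labelled transgenic arrays 2 and 3.

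Trgv4, a gamma segment, was lost from detection in the lines. Its log2 intensities were 13.11, 13.06 and 13.03 in wild type, 13.50, 13.94 and 11.72 on labelled transgenic arrays 1 to 3, and 4.41, 4.39 and 4.36 in lines 3, 175 and 261, where it was detected in 0 of 3. No line reached any thymus array. It fell in the lines at least 214-fold from wild-type thymus (limma adjusted p = 1.36e-06) and at least 212-fold from labelled transgenic thymus (adjusted p = 0.000494). The folds are lower bounds, set against the lowest detected signal of each array. Between the thymus groups Trgv4 differed by -0.01 ± 0.54 (SE), with labelled transgenic arrays 1 and 2 above all wild-type arrays and array 3 below them, so this difference was not called, and its sign turned under 4 other settings. The thymus is a mixture, and fewer cells of a type and less RNA per cell cannot be told apart in any of these comparisons.

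Trgv5 and Trgv7 set labelled transgenic array 1 apart. Trgv5 read 7.26, 7.20 and 7.52 in wild type and 12.74, 4.83 and 4.48 on labelled transgenic arrays 1 to 3, where arrays 2 and 3 did not detect it. In raw intensity it was 242.6 to 312.0 in wild type and 5748 on labelled transgenic array 1, with 137.2 and 141.5 on the other 2. The array 1 value was 42.6-fold above the wild-type mean and at least 206-fold above the mean of the other labelled transgenic arrays, each taken at its own lowest detected signal. Trgv7 had the same profile, with 7.29, 6.87 and 7.18 in wild type and 12.00, 4.75 and 4.84 on labelled transgenic arrays 1 to 3, again undetected on the last 2. On array 1 it was 29.5-fold above the wild-type mean and, by the same bound, at least 123-fold above the mean of arrays 2 and 3. After each profile was centred on its mean, Trgv5 and Trgv7 differed by a root mean square of 0.64 log2 units over the 9 arrays, the closest of the 28 pairs of segment probes, while Trgv4 differed from them by 3.88 and 4.04. The next closest pair, the Trav14 family and Trbv13-2 probe A of different loci, differed by 0.69, so the rank alone does not set Trgv5 and Trgv7 apart.

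These differences within a group have no replicate check. Of 19490 probes, 0.221% lay at least 2 log2 units above both other labelled transgenic arrays on array 1, and 2 of the 8 segment probes did. The SD of Trgv5 over the labelled transgenic arrays, 4.67, was reached by 2 of 19490 probes including itself, and that of Trgv7, 4.16, by 11. In wild type their SDs were 0.17 and 0.22. Over all 3 arrays, labelled transgenic minus wild type was 0.02 ± 2.03 (SE) for Trgv5 and 0.08 ± 1.81 for Trgv7, neither called. Without labelled transgenic array 1, both fell, with differences of -2.67 ± 0.23 for Trgv5 (limma adjusted p = 0.00646) and -2.32 ± 0.22 for Trgv7 (adjusted p = 0.00798). The array left out is the one seen to differ, so these calls depend on that choice. Without array 2 the differences were 1.28 for Trgv5 and 1.31 for Trgv7. Without array 3 they were 1.46 and 1.26, and neither omission gave a call.

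**Figure D2:**
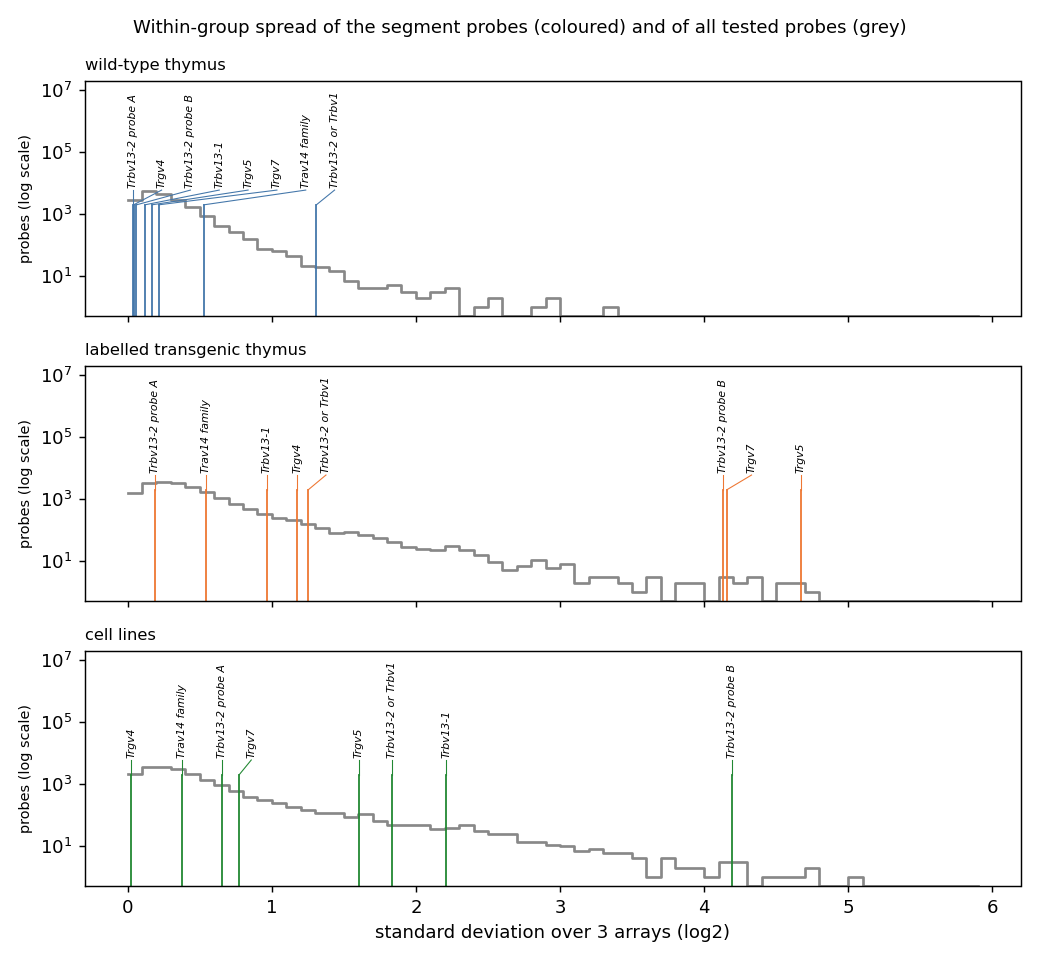
Number of tested probes (vertical axes, log scale) by the standard deviation of their log2 intensity over the 3 arrays of a group (horizontal axis), in grey, with the 8 segment probes as coloured lines, per group. Trgv5, Trgv7 and Trbv13-2 probe B lie in the far tail for labelled transgenic thymus (4.67, 4.16 and 4.13), and Trbv13-2 probe B does so for the lines (4.19).

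Among the lines, line 3 kept both of these gamma segments at the wild-type level. Trgv5 read 7.29 in line 3 and was not detected in lines 175 and 261 (4.51 and 4.51), and the line 3 value was at least 3.88-fold above their mean. Trgv7 read 6.90 in line 3, 5.88 in line 175 and 5.39 in line 261, and was detected in all 3. Line 3 lay inside the wild-type range for both, and the other lines below it. Over all 3 lines Trgv5 differed from wild type by -1.89 ± 0.72 (limma adjusted p = 0.0905) and Trgv7 by -1.06 ± 0.39 (adjusted p = 0.0814), and neither was called. Without line 3 both fell, with differences of -2.82 ± 0.21 for Trgv5 (limma adjusted p = 0.000224) and -1.48 ± 0.25 for Trgv7 (adjusted p = 0.00684). Here too the line left out is the one seen to differ. Without line 175 the differences were -1.43 for Trgv5 and -0.97 for Trgv7. Without line 261 they were -1.43 and -0.72, and neither omission gave a call.

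Trbv13-1, a beta variable segment, was the 1 segment called lower than wild type in both other groups. It read 11.03, 11.06 and 10.84 in wild type, 7.34, 6.76 and 5.46 on labelled transgenic arrays 1 to 3, and 4.45, 4.64 and 8.37 in lines 3, 175 and 261. It was detected on all 6 thymus arrays and in line 261 alone among the lines, and no array of the other groups reached wild type. On the labelled transgenic arrays it fell by 4.45 ± 0.45 (SE, limma adjusted p = 0.00462), and single arrays were 12.4-, 18.6- and 45.8-fold below the wild-type mean. In the lines it fell by 5.15 ± 0.97 (adjusted p = 0.00973), line 261 being 6.08-fold below the wild-type mean and lines 3 and 175 at least 50.4- and 50.05-fold below it. Lines and labelled transgenic thymus differed by -0.70 ± 1.08 and overlapped. Both falls rest on the same wild-type arrays.

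The 2 probes annotated to Trbv13-2 disagreed. Probe A was bright everywhere, with 14.41, 14.48 and 14.45 in wild type, 14.38, 14.07 and 14.42 on labelled transgenic arrays 1 to 3 and 13.26, 14.48 and 14.31 in lines 3, 175 and 261. No comparison called it, with differences of -0.43 ± 0.33 or less in size (limma adjusted p = 0.352 to 0.822), and only line 3 lay more than 1 log2 unit below wild type. Its raw intensity of 13303 to 25524 lay beside a highest signal of any probe of 20310 to 30170 over the arrays.

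Probe B of Trbv13-2, in contrast, split both groups. It read 11.45, 11.57 and 11.49 in wild type, 14.04, 12.92 and 6.39 on labelled transgenic arrays 1 to 3 and 4.72, 8.45 and 13.09 in lines 3, 175 and 261. Labelled transgenic array 1 was 5.79-fold and array 2 was 2.66-fold above the wild-type mean, while array 3 was 34.6-fold below it. Line 261 was 2.99-fold above the wild-type mean, line 175 was 8.30-fold below it and line 3, where it was not detected, at least 72.9-fold below. By the rule of 2 log2 units it lay below both other arrays of its group on labelled transgenic array 3, as 0.195% of probes did, and in line 3, as 1.09% did. Its SDs of 4.13 in labelled transgenic thymus and 4.19 in the lines were reached by 12 and 10 of 19490 probes, against an SD of 0.06 in wild type. No comparison called it: the difference from wild type was -0.39 ± 1.80 for labelled transgenic thymus (limma adjusted p = 0.968) and -2.75 ± 1.83 for the lines (adjusted p = 0.288). Without labelled transgenic array 3 it rose by 1.97 ± 0.35 in thymus (adjusted p = 0.0485), and without line 261 it fell by 4.92 ± 0.99 in the lines (adjusted p = 0.0184). Both omissions remove the array seen to run the other way, so these calls depend on that choice. The difference in thymus was -1.85 without array 1 and -1.29 without array 2. In the lines it was -0.74 without line 3 and -2.60 without line 175. None of these was called.

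The probe annotated to both Trbv13-2 and Trbv1 followed neither of those probes. It read 6.02, 8.38 and 8.17 in wild type, 5.32, 6.09 and 7.77 on labelled transgenic arrays 1 to 3, and 4.54, 4.47 and 7.68 in lines 3, 175 and 261. It was detected on all 6 thymus arrays and in line 261 alone among the lines. In wild type its SD of 1.31 was reached by 0.364% of probes, and it lay low on wild-type array 1, as 0.395% of probes did by the rule of 2 log2 units. Its differences from wild type of -1.13 ± 0.80 and -1.96 ± 0.99 were not called (limma adjusted p = 0.665 and 0.177). Without line 261, the line seen to differ, it fell in the lines, with a difference of -3.02 ± 0.71 (limma adjusted p = 0.0287). Without line 3 the difference was -1.45 and without line 175 -1.41, and neither was called. The Trav14 family probe stayed near the detection limit, between 4.54 and 6.23 over the 9 arrays, and no comparison called it (limma adjusted p = 0.332 to 0.978).

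**Figure D3:**
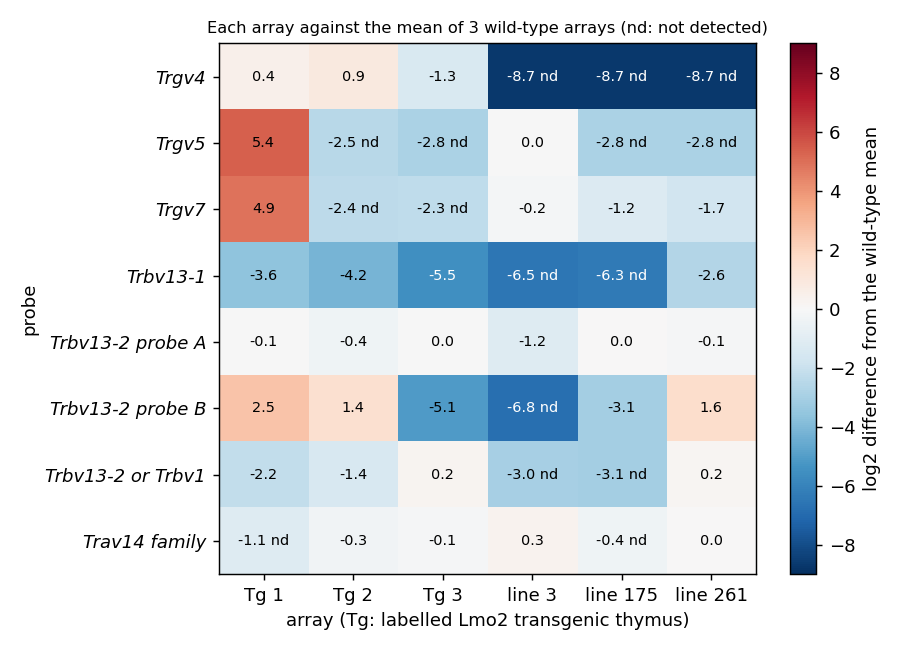
Log2 difference of each labelled transgenic array and each cell line (columns) from the mean of the 3 wild-type arrays, for each segment probe (rows), with nd where the probe was not detected on that array. Columns differ from each other: labelled transgenic array 1 is high for Trgv5 (5.41) and Trgv7 (4.88), and line 261 is the 1 line above wild type for Trbv13-2 probe B (1.58).

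At the detection limit of p under 0.05, each line thus had its own set of detected segments. Line 3 detected Trgv5, Trgv7, Trbv13-2 probe A and the Trav14 family, and none of the other 3 beta probes. Line 175 detected Trgv7 and both Trbv13-2 probes. It missed the Trav14 family only narrowly, at a detection p of 0.0588, so that absence depends on the limit. Line 261 detected all 4 beta probes, with Trgv7 and the Trav14 family, and its Trgv7 detection p of 0.0449 was close to the limit. Segments detected in a line and at least 2 log2 units above both other lines numbered 1 in line 3 (Trgv5), 0 in line 175 and 3 in line 261 (Trbv13-1, Trbv13-2 probe B and the probe shared with Trbv1). The same rule took 1.30%, 0.436% and 0.646% of all 19490 probes in those lines. The values of line 261 exceeded the mean of the other lines at least 8.26-fold for Trbv13-1 and 5.13-fold for the shared probe, and the lead over the next line was 4.64 log2 units for Trbv13-2 probe B. With 1 array per line these differences have no replicate check. Without background correction the rule took 1 segment probe over the lines, in place of 4.

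Group by group, few segments were called. In labelled transgenic against wild-type thymus 1 of 8 probes fell and 0 rose, where 2.81% of 19490 probes were called, 1.35% higher and 1.45% lower. In the lines against wild type 2 of 8 fell and 0 rose, where 27.6% of all probes were called, 13.7% higher and 13.9% lower, so 2 of 8 was close to the background. In the lines against labelled transgenic thymus 1 of 8 fell, where 16.3% were called, 7.36% higher and 8.96% lower. The median differences of the 8 probes were -0.27, -1.93 and -0.99, beside 0.00, 0.09 and 0.08 over all probes. Groups did not overlap for 1, 2 and 1 of the 8 probes, where 19.7%, 47.5% and 42.5% of all probes did not overlap.

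**Figure D4:**
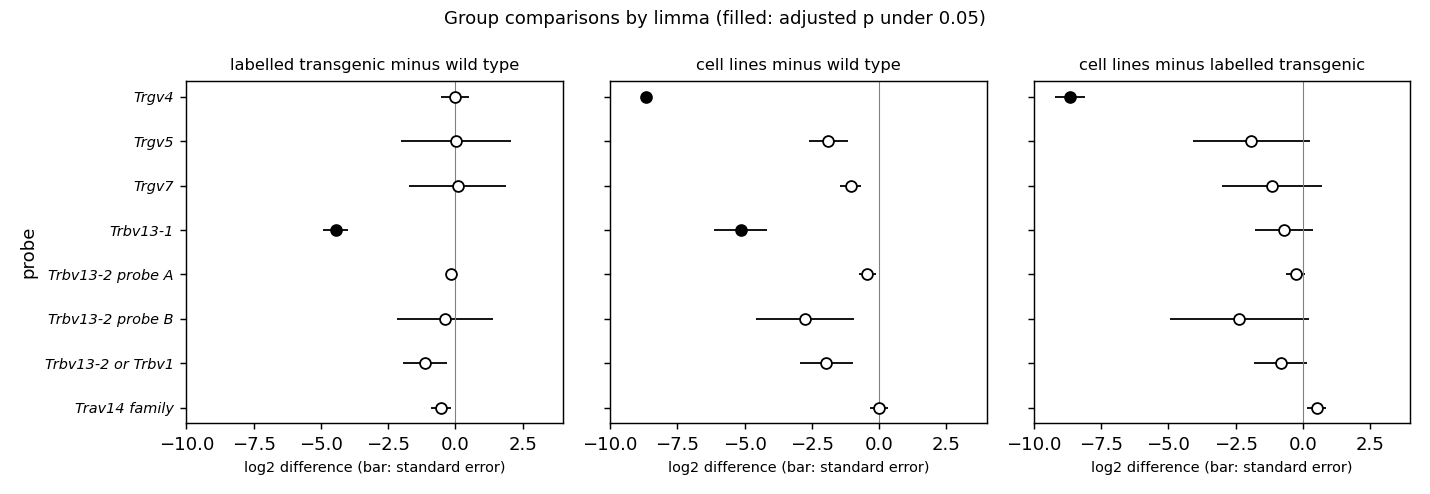
Log2 difference with its standard error (horizontal axes) of each segment probe (rows) in the 3 group comparisons, 3 arrays against 3, with filled points called at an adjusted p under 0.05. Trgv4 (-8.68 and -8.67 in the comparisons with the lines) and Trbv13-1 (-4.45 and -5.15 against wild type) are called, and wide errors mark the probes on which arrays of a group disagree.

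Genes that assemble or carry the receptor were read beside the segments. The CD3 chains hold the receptor at the membrane and signal for it. Cd3d read 12.95 to 13.61 over the 9 arrays and was not called. Cd3e, at 13.22 to 13.40 on the thymus arrays and 12.33, 12.37 and 12.59 in lines 3, 175 and 261, fell in the lines by 0.85 ± 0.18 from wild type (limma adjusted p = 0.0147) and by 0.88 ± 0.21 from labelled transgenic thymus (adjusted p = 0.034). Cd3g fell in the lines by 0.89 ± 0.22 from wild type (adjusted p = 0.0247). Cd247, the zeta chain, read 9.28 to 11.05 on 8 arrays and 6.01 on labelled transgenic array 2, by the brightest of its 3 probes, and was not called. Its other probes went the other way in both comparisons with wild type and were not called in any comparison. Labelled transgenic minus wild type was -1.15 by the brightest probe, and 0.20 and 0.42 by the others. Lines minus wild type was -0.31 by the brightest, and 0.91 and 0.86 by the others. Lines minus labelled transgenic thymus had the same sign in all, with 0.84 by the brightest, and 0.71 and 0.44 by the others. The other probes were compared by group only, so whether they too were low on array 2 was not shown.

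The pre-TCR alpha chain gene Ptcra and the recombination genes Rag1, Rag2 and Dntt read far lower in line 3 than in the other lines. Ptcra, whose product pairs with a new beta chain, read 8.60, 8.10 and 8.29 in wild type, 4.93, 6.49 and 6.27 on labelled transgenic arrays 1 to 3, and 4.93, 11.08 and 10.46 in lines 3, 175 and 261, undetected at both values of 4.93. Rag1, the cutting subunit of the recombinase, read 10.54 to 10.90 in wild type, 8.95 to 9.49 on the labelled transgenic arrays, and 4.88, 10.97 and 11.23 in the lines. Dntt, which adds bases at the joins, read 11.90 to 12.64 on the thymus arrays and 4.72, 10.83 and 10.56 in the lines. Rag2, the partner of Rag1, read 4.49 in line 3, 7.12 in line 175 and 7.45 in line 261, above the 4.46 to 5.58 of the thymus arrays in the last 2, and was detected on no labelled transgenic array. Line 3 was thus lowest of the lines in all 4 genes, and its value lay below wild type in each. All 4 values lay under the lowest detected signal of that array, 5.32. Rag2 read 5.20 to 5.58 in wild type, so near this limit that a fall of Rag2 in line 3 cannot be measured. The joining genes of the same list did not share the low values. Among the lines, Prkdc (7.05) and Xrcc6 (14.16) were highest in line 3, and Lig4 (8.11) lay between the others. Nhej1 was lower in line 3 (6.74) than in lines 175 and 261 (7.46 and 7.43), and Xrcc4 was detected in no line.

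On the labelled transgenic arrays Ptcra fell by 2.43 ± 0.42 (limma adjusted p = 0.0294) and Rag1 by 1.54 ± 0.22 (adjusted p = 0.0145), while Dntt differed by 0.31 ± 0.20 and was not called. Of 13 measured genes in this list of 15, 2 fell and 0 rose in labelled transgenic thymus, and 2 fell and 1 rose in the lines against wild type. In the lines against labelled transgenic thymus 1 fell and 0 rose. Over all probes 2.81%, 27.6% and 16.3% were called in these comparisons, so the counts for the lines, 3 and 1 of 13, were below that background. The riser was the joining factor Nhej1 (0.97 ± 0.26, adjusted p = 0.0327). The medians over the list were -0.13, -0.12 and 0.19. Rag1 and Ptcra were not called in the 3 fits that left out a wild-type array or in 1 fit over all 9 arrays, where 0 genes of the list were called, and 1 was without labelled transgenic array 3. In the lines against wild type 1, 0 and 0 genes of the list were called without wild-type array 1, 2 or 3, and 6 without line 3. Against labelled transgenic thymus 4 were called without line 3, and 0 without any other array.

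**Figure D5:**
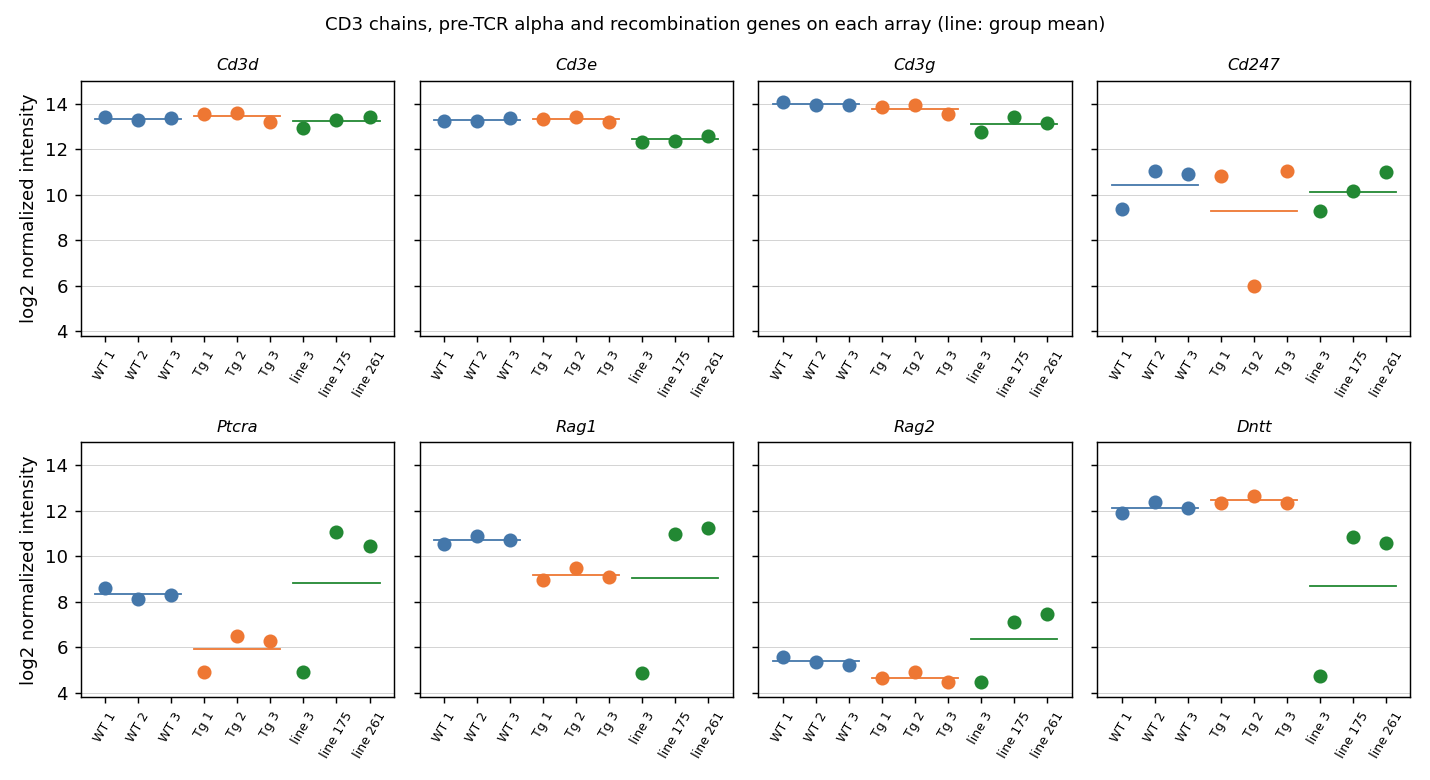
Log2 normalized intensity (vertical axes) of the CD3 chains, Ptcra, Rag1, Rag2 and Dntt on each of the 9 arrays (horizontal axes), coloured by group with group means as lines. Line 3 lies far below lines 175 and 261 for Ptcra, Rag1, Rag2 and Dntt, while Cd3d stays within 12.95 to 13.61.

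Markers of gamma-delta T cells were read beside the gamma segments. Of 10 measured markers, 6, 6 and 7 were detected on the wild-type arrays, 6, 6 and 5 on labelled transgenic arrays 1 to 3, and 0, 2 and 5 in lines 3, 175 and 261. The mean log2 level of the list was 7.05 to 7.35 in wild type, 6.53 to 7.62 on the labelled transgenic arrays and 4.64 to 5.63 in the lines. Sox13, a transcription factor of gamma-delta precursors, read 8.08 to 8.50 in wild type, 9.82 to 10.26 on the labelled transgenic arrays and 4.60 to 5.51 in the lines. Blk, a Src family kinase, went the other way in thymus, with 9.55 to 10.10 in wild type, 7.38 to 9.27 on the labelled transgenic arrays and 4.38 to 4.55 in the lines. So did 5830411N06Rik, detected on 3 of 9 arrays, with 5.86 to 6.33 in wild type and 4.45 to 4.82 on the labelled transgenic arrays. These marker differences were not tested here. Cd163l1, a scavenger receptor of gamma-delta T cells, read 10.85 to 11.14 in wild type, 14.12, 13.69 and 7.74 on labelled transgenic arrays 1 to 3 and 4.71, 4.95 and 8.21 in lines 3, 175 and 261. On labelled transgenic array 3, where Trgv4 and Trbv13-2 probe B were lowest among thymus arrays, Cd163l1 was lowest too. Blk (7.38), Il17rb (9.56) and 5830411N06Rik (4.45) were also lowest there. The markers Sox13 (9.82), Etv5 (7.35) and Zbtb16 (4.92, near background) were not. The mean log2 levels of the NK and B cell marker lists described below were lowest on that array as well (6.93 and 5.53). Low values on array 3 were thus seen in some gamma-delta markers and in both other lists, and their source was not tested. Il23r and Maf were detected on 0 arrays and Il17a on 1. Line 3, which alone of the lines detected Trgv5, detected 0 of the 10.

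NK cell markers, like Trgv4 and Trbv13-1, read lower in the lines. Of 8 measured, 6 to 7 were detected on the thymus arrays and 1 to 2 in the lines, and their mean log2 level was 8.83 to 9.02 in wild type, 6.93 to 7.71 on the labelled transgenic arrays and 5.02 to 5.14 in the lines. Ncr1, the defining NK receptor, was detected on 0 arrays. The 5 measured B cell markers averaged 6.25 to 6.75 in wild type, 5.53 to 6.29 on the labelled transgenic arrays and 4.80 to 5.06 in the lines. The part of these cells in the segment values was not tested.

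The genes whose profile over the 9 arrays came closest to Trgv4, by the root mean square difference of centred log2 values among 9753 named genes, were the lysozyme gene Lyz1 (0.82), the class II invariant chain Cd74 (0.96) and the cytotoxic granule gene Nkg7 (0.96). All 3 were high in thymus and at background in the lines: Lyz1 read 10.80 to 13.25 on the thymus arrays and 4.32 to 4.60 in the lines. Closest to Trbv13-1 were Itgae, the integrin chain CD103 (0.92), the Ly49 receptor gene Klra10 (1.08) and the sialyltransferase gene St6galnac3 (1.18). Itgae shared with Trbv13-1 its position of line 261 (8.99) above lines 3 and 175 (6.06 and 4.88) and its lowest thymus value on labelled transgenic array 3 (6.65).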

How the data were processed

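Total RNA was labelled and run on Illumina BeadChips, per the labels' protocols. Per the file headers, the deposited raw table has columns of intensity and of detection p-value for every array. The authors' deposited normalized table holds log2 values. The submitters' processing notes name BeadStudio and limma without versions. Intensities were background-corrected from the detection p-values, quantile-normalized and log2-transformed with neqc (offset 16, limma 3.58.1, R 4.3.3), and correlated at r = 0.999 with the authors' log2 table. The 19490 probes detected at p under 0.05 on at least 3 of 9 arrays, all 8 segment probes among them, were fitted per comparison on 6 arrays (lmFit and eBayes, two-sided) with Benjamini-Hochberg adjustment over all, called at an adjusted p under 0.05. Only called probes are said to rise or fall.

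Platform annotation gave 1 symbol to 34885 probes, several to 18 and none to 10378. A gene outside the segments was represented by its kept probe with the highest mean, and a marker by its brightest probe whether kept or not. Every segment probe, list gene and marker could be named, and for Trgv4 and Trbv13-1 the 3 most similar genes. The segments, lists and tests were chosen with earlier results of these data known. The limma step was tested on simulated data. Replicate numbers did not pair samples. No genome build is named, so no positions are given. The small number of arrays limits the precision.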

Additional observations from a re-analysis of the deposited data

How the results depend on the processing

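The calls of Trgv4 in both comparisons with the lines and of Trbv13-1 in both comparisons with wild type held in all 16 other settings of each, with log2 differences of -9.33 to -6.17 and -6.43 to -3.30 and adjusted p of at most 0.044. The direction of other small differences did not hold. Labelled transgenic minus wild type became 0.0040 without background correction and 0.20 with median scaling for Trgv4, -0.20 in the authors' deposited table and -0.060 with median scaling for Trgv5, and -0.11 and -0.011 for Trgv7. With 1 array left out at a time, that difference ran from -0.46 to 0.65 for Trgv4, -2.67 to 1.46 for Trgv5, -2.32 to 1.31 for Trgv7 and -1.85 to 1.97 for Trbv13-2 probe B. Lines minus labelled transgenic thymus ran from -3.35 to 0.78 for Trgv5, -2.36 to 1.26 for Trgv7 and -0.50 to 0.10 for Trbv13-2 probe A, and lines minus wild type from -0.27 to 0.26 for the Trav14 family. The number of segment probes called ran from 1 to 3 in thymus, 2 to 4 in the lines against wild type and 1 to 1 against labelled transgenic thymus. In the order labelled transgenic against wild type, lines against wild type and lines against labelled transgenic, leaving out 1 array gave 120 to 657, 2505 to 5906 and 1141 to 2460 called probes of all, 0 to 2, 0 to 6 and 0 to 4 called receptor assembly genes, and differences in the number of segments detected of -2 to -1.50, -4.50 to -3 and -2.83 to -1.33.

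The replicate number as a block (same-number correlations of -0.21 to 0.21, so the samples share only a number; no sample correlated best with its own) gave 191, 3510 and 1384 called probes, where the fits without it gave 547, 5376 and 3181, with 0, 0 and 0 assembly genes, and changed no segment call. The gene-level fit gave 2469 and 1579 called genes in the last 2 comparisons, testing fewer features. A fit on all 9 arrays gave 5311 called probes in the last comparison, with 0 assembly genes in the first and 2 in the last. Median scaling gave 1 and 0 assembly genes in the first and last comparison, no filter 1 in the first, and trend with robust variances 2 in the last. Taking the best probe per symbol, lines detected 2.33 segments fewer than wild type (-2.33). Without background correction 1 segment probe, not 4, stood 2 log2 units above both other lines. The cause of these changes was not tested. A slide block was not run, since the files give no slide. Near-background signal limits the Trav14 family and the undetected values.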

Other observations

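Immunoglobulin segments, the related receptor genes of B cells, were searched in the same annotation. Of the 3 probes whose symbols start in that way, 1 reads a segment, Ighg1, and the other 2 read Ighmbp2, a helicase gene that is not a segment. Ighg1 was detected on 3 of 9 arrays, at log2 values of 4.44 to 5.58, with its highest value on labelled transgenic array 2. Among other gamma-delta markers, Il17rb, a cytokine receptor, read 10.31 to 10.58 in wild type and 4.62, 10.22 and 7.46 in lines 3, 175 and 261, and so was near background in line 3 alone. Cd4 read 7.78 in line 175 and 4.80 to 5.48 on the other 8 arrays.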
